A study of Tribolium castaneum with 8 samples.

Results

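Juvenile hormone is the insect hormone that keeps a larva larval at each moult, and 3 genes around it were followed through the life of the red flour beetle Tribolium castaneum. They are the cytochrome P450 15A1 (TC002551), which stands for synthesis, a juvenile hormone epoxide hydrolase (TC003438), which stands for breakdown, and a juvenile hormone-inducible protein (TC009655), which stands for response. The 3 were picked from 14422 genes with their levels across stages known, so those levels are given as a description with no test. The names come from the deposited annotation. The strongest deposited KEGG match of TC002551 is the beetle gene that RefSeq lists under the synonym CYP15A1, and the protein accession of TC009655 matches the RefSeq gene LOC663104.

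The study took whole bodies of the GA-1 laboratory strain, reared on wheat flour with yeast, at 4 stages: embryos at 3 days, larvae at 20 days, pupae at 3 days and adults at 3 days. Each stage gave 1 library of polyadenylated RNA, and the labels name no treatment and no mutation. The series also has 4 bisulfite libraries of DNA from pools of 50 individuals, which are left aside here. For the RNA the labels give neither the number of animals per library nor their sex.

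The hormone is made in the corpora allata, a pair of small glands behind the brain. The mevalonate pathway supplies the carbon chain, a methyltransferase adds a methyl ester, and in beetles P450 15A1 closes the epoxide ring that completes the molecule. Esterases and epoxide hydrolases open these bonds again and so inactivate the hormone. In target cells a receptor complex switches genes on or off, the larval programme among them, and in adult females the hormone also drives the making of yolk.

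The RNA libraries held between 3.09 M and 3.67 M unique reads in genes, and the median listed gene had between 71 and 90 reads. Stage markers followed the labels for the most part. The summed level of 6 hexamerin and arylphorin genes, the storage proteins of the larval fat body, was 208, 52867, 2164 and 68.7 RPKM in embryo, larva, pupa and adult, and the sum of 83 homeobox genes was highest in the embryo library at 2171 RPKM. RPKM scales the reads of a gene by the length of its model and by the reads of the library. The yolk protein genes, which mark egg-laying females, were close to 0 in the adult library: vitellogenin TC010839 had 1, 125, 2 and 4 reads in embryo, larva, pupa and adult, and vitellogenin TC013602 had 1, 27, 6 and 7. Another gene, deposited as a putative vitellogenin (TC009851), stood at 29.0 RPKM in adult. Its RefSeq match is Rchy1, so it is not read as a yolk protein gene here. The male germ line marker list matched 1 gene, by the names tektin or beta-2 tubulin. That gene stood at 3.51, 0.187, 8.38 and 91.3 RPKM in embryo, larva, pupa and adult. The part of male germ line cells in the adult levels given below was not tested. With 1 library per stage nothing has a replicate check, and all intervals in parentheses are 95% intervals for counting error only. In whole bodies, fewer cells of a type and less RNA per cell cannot be told apart.

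**Figure D1:**
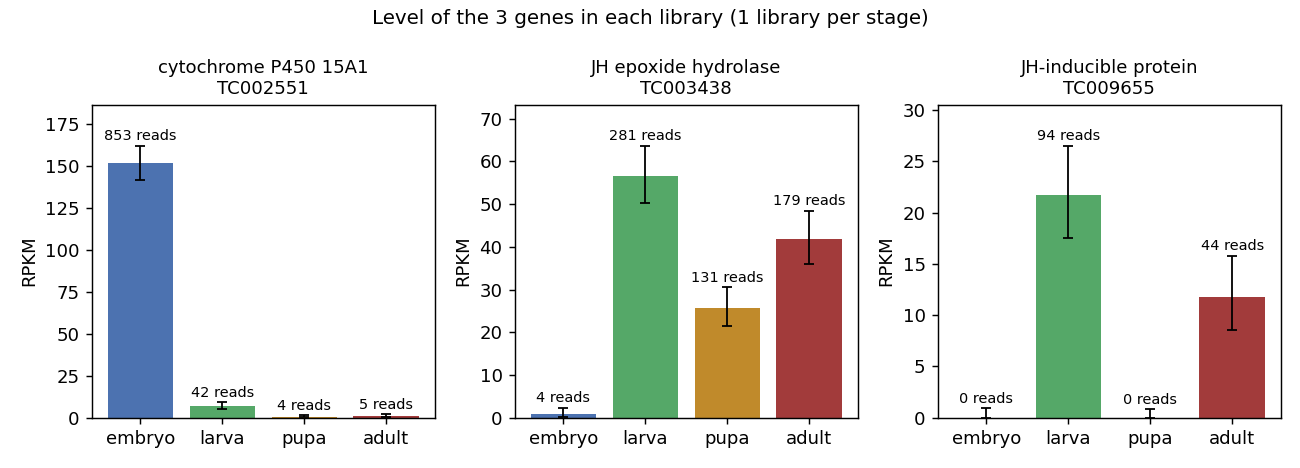
Level of each of the 3 genes in RPKM (vertical axis, from 0) in the embryo, larval, pupal and adult libraries, 1 library per stage; bars are the deposited values, whiskers the 95% counting intervals, and the read number stands above each bar. The P450 is high in the embryo library at 152 RPKM, while the other two are highest in the larval library, at 56.7 and 21.7 RPKM, with a second, lower level in the adult library.

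The 3 genes were set against all genes at each step. A gene was counted from 2-fold on, on the log2(RPKM + 1) scale, which understates differences of weak genes, if it had at least 1 RPKM in either library. In larva against embryo 18.6% of 12179 genes were higher and 34.2% lower, and of the 3 genes 2 were higher and 1 lower. The epoxide hydrolase had the 367th highest difference, the inducible protein the 455th highest, and P450 15A1 the 66th lowest. Relative to the median of all genes, which was -0.62, they lay at 5.56, 5.13 and -3.67. In pupa against larva 22.7% of 12280 genes were higher and 14.2% lower, and all 3 genes were lower. Relative to the median of 0.43 the inducible protein lay at -4.94, P450 15A1 at -2.69 and the epoxide hydrolase at -1.54.

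In adult against pupa 22.8% of 12713 genes were higher and 15.6% lower. The inducible protein was higher, with the 426th highest difference, and the epoxide hydrolase stayed within 2-fold. P450 15A1 was below 1 RPKM in both and was not counted. Since the 3 genes were chosen for such differences, nothing is read from these counts. The balance over all genes depended on the scaling. Among genes past 2-fold, 35.2% were higher in larva against embryo, or 59.4% after median-ratio rescaling, and 61.5% were higher in pupa against larva, or 42.9%.

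**Figure D2:**
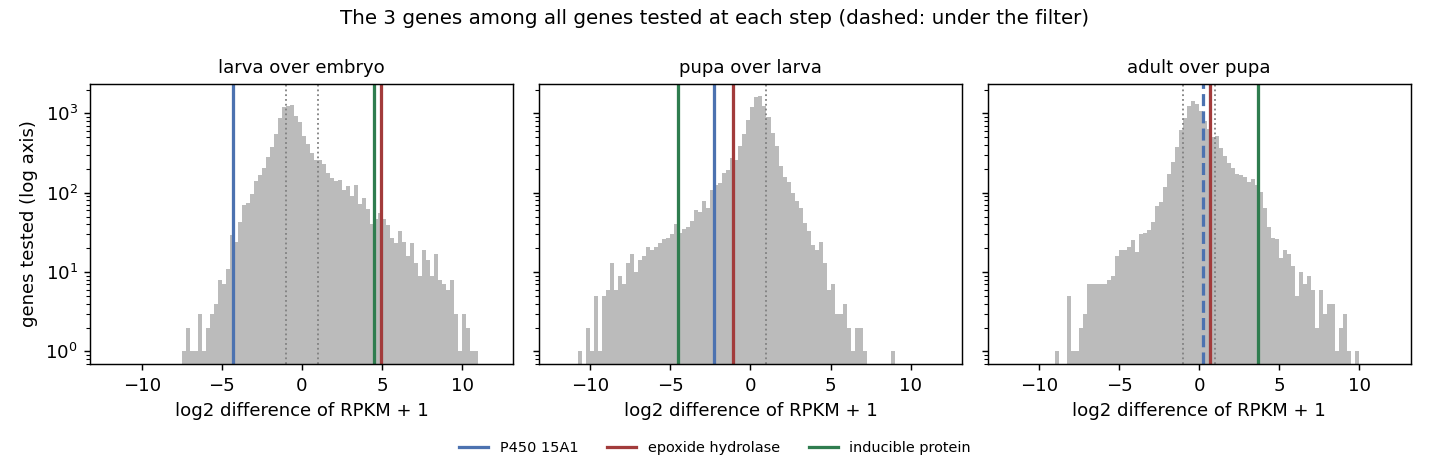
Histograms of the log2 difference of RPKM + 1 over all genes tested (horizontal axis) with the number of genes on a log axis, for larva over embryo, pupa over larva and adult over pupa. Coloured lines mark the 3 genes, dotted lines 2-fold, and a dashed line a gene under 1 RPKM in both libraries; P450 15A1 lies at -4.30 and the other two at 4.93 and 4.50 in the first panel.

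P450 15A1 was an embryo gene in these libraries. Embryos stood at 152 RPKM (142 to 162), larvae at 6.77 (4.88 to 9.15), pupae at 0.628 (0.171 to 1.61) and adults at 0.934 (0.303 to 2.18). The reads behind these levels were 853, 42, 4 and 5. The embryo library was far above the other 3 and held 94.8% of the gene's RPKM summed over the 4 libraries. Larva came next, and the pupal and adult intervals overlap, so those 2 levels could not be ordered at this depth. The level was 22.4-fold lower in larva than in embryo (16.4 to 31.3), 10.8-fold lower in pupa than in larva (3.91 to 41.4) and 241-fold lower in pupa than in embryo (93.9 to 888). The 83 homeobox genes, many of them regulators of embryonic patterning, summed to 2171, 645, 1001 and 678 RPKM in the same libraries, and their part in the course of P450 15A1 was not tested.

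Among all 136 genes named as P450 enzymes, a superfamily of haem proteins that oxidise hormones, fats and toxins, P450 15A1 had the 2nd highest level in the embryo library. It ranked 91st in the larval library, 98th in the pupal and 128th in the adult. In the embryo library 9.58% of all P450 RPKM came from this gene, and in the adult library 0.0219%. Another 3 P450 genes carry the same KEGG definition, family 15 subfamily A, with weaker matches, and none of them shared its course. P450 303A1 (TC002542) stood at 17.1, 17.7, 18.4 and 1.31 RPKM in embryo, larva, pupa and adult. P450 305A1 (TC002552) stood at 10.8, 8.30, 6.06 and 21.9 RPKM, and P450 304E1 (TC000411) at 1.02, 85.0, 31.5 and 20.7 RPKM. P450 305A1 was highest in adult and P450 304E1 in larva, while the embryo, larval and pupal intervals of P450 303A1 overlap. In the RefSeq assembly icTriCast1.1 the gene of P450 15A1 lies next to ftz-f1, a nuclear receptor gene of moulting and metamorphosis.

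The methyltransferase gene was also highest in embryos. Tcjhamt (TC008471), the beetle's juvenile hormone acid methyltransferase in RefSeq, had 591, 13, 3 and 10 reads in embryo, larva, pupa and adult. Its levels were 218, 4.36, 0.979 and 3.89 RPKM, and it was 50.1-fold lower in larva than in embryo (29.1 to 94.7). Its copies jhamt-like 1 and jhamt-like 2 were highest in adult, and the embryo and pupal intervals of each overlap. Jhamt-like 1 (TC008470) stood at 0.745, 19.6, 2.96 and 164 RPKM, and was 55.4-fold higher in adult than in pupa (28.9 to 122). Jhamt-like 2 (TC008469) stood at 1.82, 6.28, 2.90 and 15.3 RPKM. The 3 copies thus divided by stage: Tcjhamt gave 98.8% of their summed RPKM in the embryo library, and jhamt-like 1 gave 89.5% in the adult library.

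**Figure D3:**
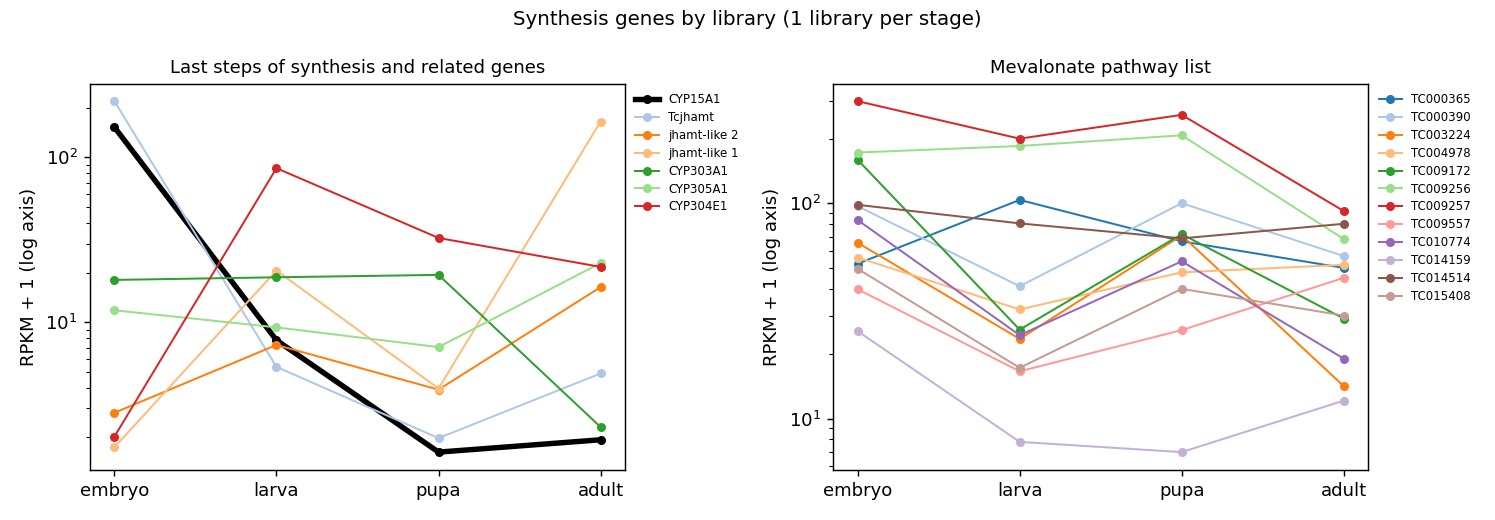
RPKM + 1 on a log axis for the last synthesis steps with related copies (left) and for the 12 genes of the mevalonate list (right), in embryo, larva, pupa and adult, 1 library per stage. P450 15A1, in black, and Tcjhamt stand at 152 and 218 RPKM in the embryo library and below 7 RPKM in the others, jhamt-like 1 ends at 164 RPKM in the adult library, and the mevalonate genes differ less between larva and embryo.

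Profile likeness was measured as the root mean square difference over the 4 libraries of log2(RPKM + 1), after each gene's mean was subtracted, among genes with at least 5 RPKM in 1 library. Tcjhamt was the 2nd nearest of 11620 genes to P450 15A1, at a difference of 0.668. It has no informative name in the deposited table and was picked out here after its values were seen. The nearest genes with informative names were n-twist (TC001473) at 0.865, chemosensory protein 2 (TC003085) at 0.975, phospholipase A2A (TC002563) at 0.979, cuticular protein 66D (TC008767) at 1.13 and developing brain homeobox (TC015146) at 1.17. The first of these stood at 22.4 RPKM in the embryo library, 0.521 in the larval and 0 in the other two. Likeness over 4 points is a description only.

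The earlier, mevalonate part of the route had smaller differences between larva and embryo, at most 6.37-fold, in HMG-CoA synthase. This list holds 12 genes, from acetyl-CoA acetyltransferase to farnesyl pyrophosphate synthase, the enzyme that makes the chain from which the hormone is built, and all 12 were tested at each step. In larva against embryo 0 were at least 2-fold higher and 7 lower, against 18.6% and 34.2% of all genes, but 1 was higher and 3 were lower after median-ratio rescaling. The median of the list was -1.25 on the log2(RPKM + 1) scale, against -0.62 over all genes. HMG-CoA synthase (TC009172), which feeds the pathway, stood at 159, 24.9, 71.0 and 28.2 RPKM in embryo, larva, pupa and adult. Farnesyl pyrophosphate synthase (TC009257) stood at 298, 199, 257 and 91.2 RPKM. Of the 12 genes 7 had their highest value in the embryo library, or 58.3%, against 40.9% of all genes.

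In pupa against larva, where 22.7% of all genes were higher and 14.2% lower, 5 mevalonate genes were higher and 0 lower (2 and 1 after median-ratio rescaling, and 2 higher when the counting interval also had to lie beyond 2-fold). In adult against pupa 0 were higher and 5 lower, against 22.8% and 15.6% of all genes, with 1 higher after median-ratio rescaling. The reductases carry the step that usually limits flux, and neither passed 2-fold in adult against pupa. HMG-CoA reductase TC009557 stood at 38.9, 15.6, 24.8 and 44.1 RPKM and its namesake TC014159 at 24.5, 6.80, 5.99 and 11.1 RPKM. Neither name was covered by the rule for named genes, and both were chosen after their values were seen.

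The epoxide hydrolase TC003438 was close to absent in the embryo library and present in every later one. It had 4, 281, 131 and 179 reads in embryo, larva, pupa and adult. Embryos thus stood at 0.890 RPKM (0.242 to 2.28), larvae at 56.7 (50.3 to 63.7), pupae at 25.7 (21.5 to 30.5) and adults at 41.8 (35.9 to 48.4). The order was therefore larva, adult, pupa and embryo, and no neighbours in that order had overlapping intervals. The level was 63.7-fold higher in larva than in embryo (24.6 to 236). It was 2.20-fold lower in pupa than in larva (1.78 to 2.73), an interval that includes differences below 2-fold, and 1.63-fold higher in adult than in pupa (1.29 to 2.05). The adult level was 0.738 of the larval (0.609 to 0.894).

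TC003438 is 1 of 5 genes that the KEGG field calls juvenile hormone epoxide hydrolase, enzymes that add water to the epoxide ring. All 5 were at least 2-fold higher in larva than in embryo, against 18.6% of all genes, and TC003438 among them was chosen with its levels known. The embryo interval lay below those of the other 3 stages for TC003438, TC003436 and TC003437, and overlapped the pupal one for TC003439 and TC002992. Their summed level was 36.4 RPKM in embryo, 307 in larva, 136 in pupa and 184 in adult. TC003438 supplied 2.44% of that sum in embryo, 18.4% in larva, 18.9% in pupa and 22.7% in adult. The embryo level of the group rested on TC003439, which alone held 66.2% of it, at 24.1, 92.4, 25.1 and 55.4 RPKM over the 4 stages.

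The copies parted after the larval stage. TC003436 stood at 7.59, 103.5, 76.7 and 51.6 RPKM, and was the leading copy in the pupal library. Its strongest match is the RefSeq gene Tcjheh-r5, as for TC003437 and TC003439. In the larval library its interval (94.2 to 113.5) overlapped that of TC003439 (84.1 to 101.3), so these copies could not be ordered there. TC002992 stood at 3.38, 49.1, 5.57 and 28.2 RPKM and was 8.80-fold lower in pupa than in larva (5.94 to 13.5). TC003437 stood at 0.451, 5.72, 3.38 and 7.11 RPKM, with larval and adult intervals that overlap. Of the 5 hydrolases 3, the chosen TC003438 among them, passed 2-fold downward and 0 upward in pupa against larva, against 14.2% and 22.7% of all genes. Upward in adult against pupa went 2, and downward 0, against 22.8% and 15.6% of all genes, or 1 and 0 when the counting interval also had to lie beyond 2-fold.

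**Figure D4:**
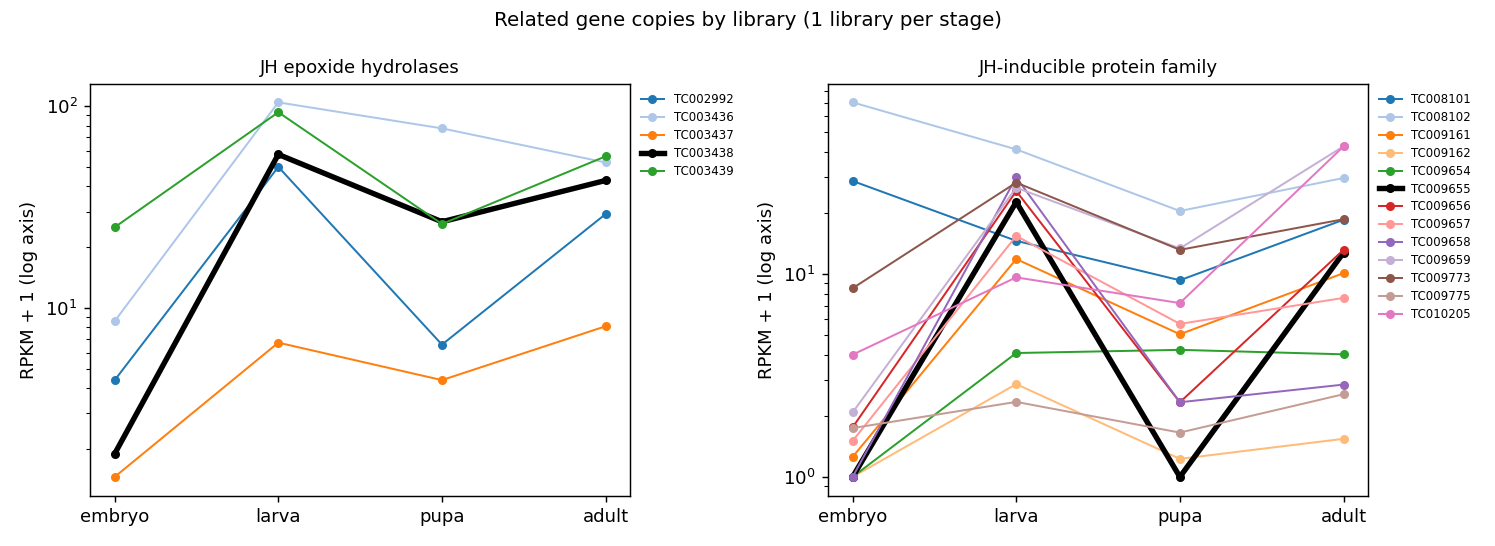
RPKM + 1 on a log axis for the 5 epoxide hydrolases (left, TC003438 in black) and the 13 genes named juvenile hormone-inducible protein (right, TC009655 in black), in embryo, larva, pupa and adult, 1 library per stage. All 5 hydrolases are higher in the larval than in the embryo library, and TC009655 is at 0 in the pupal library, where its copy TC009656 is at 1.33 RPKM.

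The genes nearest in profile to TC003438 with informative names were phosphoenolpyruvate carboxykinase isoform 2 (TC009072), an enzyme of glucose synthesis, at a difference of 0.237, and imaginal disc growth factor 4 (TC013917), a chitinase-like secreted protein, at 0.303. They were followed by P450 9Z4 (TC006444) at 0.359, a sugar transporter (TC014877) at 0.401 and serpin peptidase inhibitor 20 (TC005752) at 0.425. The first of them stood at 5.07, 176, 85.7 and 92.4 RPKM in embryo, larva, pupa and adult.

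Genes matched to juvenile hormone esterase were more numerous than the epoxide hydrolases and had more varied courses. The KEGG field gives juvenile hormone esterase as first match for 18 genes, and these include neurotactin (TC007674), a neural adhesion protein, so the match alone does not name the substrate. TC013193 has the strongest match to the RefSeq gene Tcjhe. It stood at 25.5, 142, 3.30 and 43.9 RPKM in embryo, larva, pupa and adult, and was 42.9-fold lower in pupa than in larva (26.2 to 75.6). The gene deposited under the name juvenile hormone esterase (TC014795) had a flatter course, at 67.9, 36.9, 20.4 and 66.2 RPKM. Of 16 such genes tested, 13 were higher and 1 lower in larva against embryo, where 18.6% of all genes were higher and 34.2% lower. Pupae against larvae had 1 higher and 11 lower, against 22.7% and 14.2% of all genes. Adults against pupae had 10 of 15 higher and 2 lower, against 22.8% and 15.6% of all genes, or 6 and 2 when the counting interval also had to lie beyond 2-fold. TC000804 had 4, 1239, 3 and 239 reads in embryo, larva, pupa and adult, and stood 281-fold higher in larva than in embryo (109 to 1033) and 424-fold lower in pupa than in larva (145 to 2059).

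The juvenile hormone-inducible protein TC009655 was read in larva and adult only, as far as this depth shows. It had 0, 94, 0 and 44 reads in embryo, larva, pupa and adult. The levels were 21.7 RPKM in larva (17.5 to 26.5) and 11.8 in adult (8.55 to 15.8), and a count of 0 allows up to 0.763 RPKM in embryo and 0.674 in pupa, taken at a floor of 3 reads. The upper ends of the 95% intervals of these 0 counts are 0.938 and 0.829 RPKM. Embryo and pupa could not be ordered. Against that floor the gene was at least 28.4-fold higher in larva than in embryo, at least 32.2-fold lower in pupa than in larva and at least 17.5-fold higher in adult than in pupa. These bounds use the measured larval and adult values. The lower limits of the 95% intervals of the ratios themselves, taken from the read numbers without the floor, are 22.7, 25.7 and 13.6. The adult level was 0.542 of the larval (0.370 to 0.784). The name comes from the deposited protein description only, and no response to hormone was measured in these samples.

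Its family has 13 genes of that name. Only uniquely placed reads were counted, so near-identical copies are undercounted, and the split of reads between them is uncertain. In the RefSeq assembly TC009161, TC009656 and TC009655 are direct neighbours. TC009656 ran close to TC009655, with 3, 108, 6 and 46 reads and 0.755, 24.7, 1.33 and 12.2 RPKM. TC009161 had a smaller difference between larva and pupa, at 0.255, 10.9, 4.05 and 9.11 RPKM, with larval and adult intervals that overlap. These 3 were the genes of the family in which both larva and adult were at least 2-fold above both embryo and pupa on the log2(RPKM + 1) scale. That held for 5.24% of all genes and for 32.4% of P450 genes.

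Other copies went elsewhere. TC009658 was almost a larval gene, with 0, 127, 6 and 7 reads, and was 15.7-fold lower in adult than in larva (7.38 to 39.7). TC010205 was an adult gene at 3.01, 8.64, 6.20 and 41.6 RPKM, 4.82-fold higher in adult than in larva (3.36 to 7.06). TC009659 was also highest in adult, at 1.08, 25.7, 12.4 and 41.7 RPKM. TC008102 and TC008101 were highest in the embryo library, and TC008102, at 69.3, 40.2, 19.5 and 28.8 RPKM, led the family in embryo, larva and pupa. TC009655 itself supplied 9.75% of the family's RPKM in larva and 6.07% in adult. In larva against embryo 10 of 13 genes were higher and 0 lower, against 18.6% and 34.2% of all genes. In pupa against larva 0 were higher and 8 lower, against 22.7% and 14.2%, and in adult against pupa 5 of 12 tested were higher and 0 lower, against 22.8% and 15.6%. Only 3 of the 8 in pupa against larva were still lower when the counting interval also had to lie beyond 2-fold. TC009655, chosen with its levels known, is among the 10, the 8 and the 5 genes that passed 2-fold.

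The nearest genes to TC009655 with informative names were serine protease H143 (TC013421) at a difference of 0.222, SV2-like protein 1 (TC000303) at 0.242, a putative alcohol dehydrogenase (TC002090) at 0.314, moesin/ezrin/radixin (TC000955) at 0.318 and aminopeptidase N-like protein (TC001260) at 0.321. The first stood at 24.5 RPKM in larva and 8.47 in adult, and at 0 in embryo and pupa. Proteases were taken by name as markers of the gut and counted for the same libraries. The name alone does not place a gene in the gut. Of 107 genes named cathepsin or trypsin, 69 had a read in embryo, 104 in larva, 74 in pupa and 99 in adult, with summed levels of 1789, 15901, 4110 and 2806 RPKM. Their median level was 0.577, 28.5, 0.698 and 5.10 RPKM. In adult against pupa 45 of 91 tested were higher and 24 lower, with a median of 0.96 on the log2(RPKM + 1) scale, while the summed level was lower. The part of organ shares in the levels of TC009655 and TC003438 was not tested.

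Carriers and targets of the hormone were also read. A take-out-like carrier protein named JHBP-1 (TC015843), of a family that binds small lipids, had 133, 581, 7 and 398 reads and stood at 56.0, 222, 2.60 and 176 RPKM in embryo, larva, pupa and adult. It was 85.2-fold lower in pupa than in larva (41.1 to 213). TC015517 and TC015531 carry the same name. Of the 5 genes named for hormone or esterase binding, these among them, 2 were higher and 2 lower in pupa against larva, against 22.7% and 14.2% of all genes. The cytosolic binding protein TC010680 varied less, at 35.7, 37.3, 81.7 and 85.0 RPKM. The broad gene TC005474, a transcription factor that marks the switch from larva to pupa, stood at 20.0, 115, 9.71 and 4.72 RPKM and was 11.8-fold lower in pupa than in larva (8.80 to 16.1). Allatostatin-C (TC005428), a brain peptide that restrains the corpora allata, had 7, 10, 3 and 12 reads, too few to order the stages.

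The list of response genes, which adds inducible proteins, broad matches and vitellogenins, had 14 of 26 genes higher and 5 lower in larva against embryo, against 18.6% and 34.2% of all genes. For pupa against larva 1 of 27 was higher and 11 were lower, against 22.7% and 14.2%. In adult against pupa 6 of 24 were higher, a share close to the 22.8% of all genes, and 0 were lower, against 15.6%. After median-ratio rescaling 3 were lower in larva against embryo and 17 in pupa against larva. When the counting interval also had to lie beyond 2-fold, 0 were higher and 6 lower in pupa against larva. The broad matches in it include other genes with the same protein domain, such as abrupt protein (TC009535, lolal in RefSeq) at 183, 85.8, 73.5 and 60.0 RPKM. The 13 inducible proteins described above, TC009655 among them, supplied 10 of the 14 higher in larva against embryo. They also supplied 8 of the 11 lower in pupa against larva and 5 of the 6 higher in adult against pupa. These counts of the list thus largely repeat those of that family.

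Enzymes of the other moulting hormone, the ecdysteroids, were read for comparison. P450 307A1 (TC004159), an early enzyme of that route, stood at 43.7, 2.78, 21.2 and 0.605 RPKM, and so shared the high embryo level of P450 15A1 but was also present in the pupa. P450 CYP314A1 (TC011231), which makes the active ecdysteroid, stood at 62.1, 16.0, 15.1 and 7.0 RPKM. P450 302A1 (TC014691) kept between 37.0 and 61.2 RPKM in all 4 libraries. Of the 8 genes of that list 1 was higher and 4 lower in larva against embryo, where 18.6% of all genes were higher and 34.2% lower. For pupa against larva 2 of 7 were higher and 0 lower, against 22.7% and 14.2%, and the 2 became 1 after median-ratio rescaling, without the strongest genes in the totals, or with the interval beyond 2-fold. For adult against pupa 0 of 7 were higher and 5 lower, against 22.8% and 15.6%, and the 5 became 3 with the interval beyond 2-fold. An ecdysteroid-regulated protein of another function (TC008202) is also among the 8. It was the 1 gene counted as higher in larva against embryo, at 29.8 RPKM in embryo and 220 in larva.

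All genes named for juvenile hormone, by either name field, number 44, and TC003438 and TC009655, chosen with their levels known, are among them. In larva against embryo 32 of 42 tested were higher and 3 lower, against 18.6% and 34.2% of all genes. The median of the list was 2.62 on the log2(RPKM + 1) scale, against -0.62 over all genes. In pupa against larva 3 of 42 were higher and 26 lower, against 22.7% and 14.2%, and the median was -1.33, against 0.43. In adult against pupa 22 of 40 were higher and 3 lower, against 22.8% and 15.6%, and the median was 1.08, against -0.09. Among the 136 P450 genes, 91 of 122 tested were higher and 6 lower in larva against embryo. For pupa against larva 12 of 121 were higher and 71 lower, and for adult against pupa 73 of 130 were higher and 24 lower. This course was therefore not particular to the genes named for the hormone. Of the 44, 23 had their highest value in the larval library, 10 in the adult, 8 in the embryo and 3 in the pupal. Over all genes these shares were 15.5% for larva, 26.8% for adult, 40.9% for embryo and 16.8% for pupa. Esterase matches make up 18 of the 44. P450 15A1, which carries no such name, is not in this list, and Tcjhamt is 1 of the 3 genes that were lower in larva than in embryo.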

How the data were processed

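Per the labels' protocols, TRIzol RNA was selected on oligo(dT) beads, primed with random hexamers and run on an Illumina Genome Analyser, with no strand-marking step mentioned. Per the file headers, the authors deposited counts of unique reads per gene model, RPKM from these counts, and a coverage percent per model, which supports no result here. Recomputed RPKM matched to within a relative difference of 3.66e-14. SAMtools 0.1.19, BSMAP 2.73 and CASAVA 1.8.2 appear in the submitters' processing notes. No coordinates are given, because build, RNA aligner and counter were not given in the sources used here. An unlisted gene was taken as 0 reads.

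Ratios are of RPKM, later over earlier stage, with 95% intervals from the exact conditional binomial of the read numbers. Levels have exact Poisson intervals, and a gene with 0 reads was bounded at 3 reads. No p-value was computed, since each stage has 1 library. The calls and intervals were tested on simulated counts that held counting error only, which cannot speak to variation between animals or libraries. Lists were matched by patterns on the protein names and the first KEGG definition, and 35 of 85 pathway genes matched RefSeq by protein accession. The members and lists were chosen with earlier results of these data known, and the families by name after the files were seen. Named were the members, genes named for the hormone, up to 6 genes per other list by highest RPKM, from 10 RPKM on, and the 5 nearest profiles. The vitellogenins TC010839 and TC013602, which are under that level, the putative vitellogenin TC009851 and the genes marked so in the text were chosen after their values were seen. The receptor gene Met and its target Kr-h1 were not analysed here. The software was scipy 1.17.1, pandas 2.3.3, numpy 2.4.6 and matplotlib 3.10.9 under Python 3.11.15.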

Additional observations from a re-analysis of the deposited data

How the results depend on the processing

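The differences of the 3 genes at the 3 steps kept their direction under median-ratio rescaling and when the totals excluded each library's 20 strongest genes. This leaves aside P450 15A1 in adult against pupa, which rests on 5 and 4 reads and could not be ordered. With that step included, 10 of the 12 values with reads in both libraries stayed within the counting interval. The other two moved under median-ratio rescaling: the log2 ratio of P450 15A1 in larva against embryo was -3.84 in place of -4.48, and that of the epoxide hydrolase in pupa against larva -1.59 in place of -1.14. The 6 values of the inducible protein are bounds over 0 reads, with no closed interval to leave. Of the all-gene counts, 4169 lower in larva against embryo became 2047 after median-ratio rescaling and 2298 when the counting interval had to lie beyond 2-fold. In pupa against larva 2792 higher became 1717 and 1295 under the same settings, and in adult against pupa 2899 higher and 1984 lower became 1888 and 1008 with the interval. Of the genes named for juvenile hormone, 3 higher in pupa against larva became 1 with the interval. Taking names from the protein description only left 22 of the 44 genes, and the counts were then 15 higher and 1 lower in larva against embryo, 12 lower in pupa against larva, and 10 higher and 1 lower in adult against pupa. Among the other lists 26 counts moved by more than 1.5 times and 208 did not. The causes of these shifts were not tested, apart from the smaller list and the stricter threshold. At this depth 3 reads in a model of the length of TC009655 are worth 0.674 to 0.802 RPKM, the floor used to bound a count of 0. Lower levels were listed where a gene had a read, as for TC009161 at 0.255 RPKM in embryo from 1 read. Such levels rest on very few reads. No paired analysis was possible because each stage has 1 library and the labels carry no replicate numbers. Leaving out a library was not possible for the same reason.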
